A study of Mus musculus with 6 samples.

Results

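The collagen chain genes were followed in RNA sequencing of mouse lenses at E15.5, an embryonic stage. Their members were taken by name, as every listed feature whose symbol is Col, a number, a and a number, which gave 44 genes of 41128 features. The first of the compared groups is a conditional knockout (cKO) of Itgb1, the gene of β1-integrin. Its lenses carried Flox/Flox alleles of Itgb1 and the transgene MLR10 Cre, whose recombinase acts within the lens. The strain background of these animals was mixed, and 30 lenses were pooled per replicate. The wild-type lenses were C57Bl/6, with 75 pooled per replicate, and their records repeat those of an earlier series. Each group held 3 biological replicates, and genotype, strain background, Cre, pool size and the series in which the libraries were made cannot be told apart. The labels do not say whether vessels and other tissue around the lens were removed, and in such bulk RNA fewer cells of a type and less RNA per cell cannot be told apart.

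Collagens are matrix proteins of 3 chains wound into a triple helix, in which each chain repeats glycine and a pair of further residues (Gly-X-Y). Collagen IV forms the network of basement membranes, of which the lens capsule, made by lens epithelial and fiber cells, is a thick example. Fibrillar collagens build the fibrils of connective tissue, FACIT collagens lie on the surface of such fibrils, collagen VI forms beaded filaments in the matrix around cells, and transmembrane collagens stay anchored in the cell membrane. β1-integrin, paired with α1, α2, α10 or α11, is a receptor for collagen. By class, the 44 genes were 11 fibrillar chains, 6 chains of collagen IV, 6 of collagen VI, 9 FACIT chains, 4 transmembrane chains and 8 others, which are the basement membrane zone collagens XV and XVIII and the chains Col7a1, Col8a1, Col8a2, Col10a1, Col26a1 and Col28a1.

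The gene structure of the chains shows the repeat that unites the fibrillar members. An exon of 54 bases encodes 18 residues, or 6 Gly-X-Y repeats, and such exons made up 48.6% of the 627 internal coding exons of the fibrillar chains, 26.3% of the 414 of the FACIT chains, 8.25% of the 206 of collagen VI and 4.23% of the 284 of collagen IV. Over all 44 chains the share was 24.5% of 1917 exons, against 0.444% of 157298 in the other protein-coding genes of GENCODE M21. The first exon of this length that keeps the repeat in frame is shown for the 3 fibrillar chains that were called higher in cKO and for Col6a3, which was called lower, read from GENCODE transcripts of the build GRCm38 on the coding strand. Capitals mark the glycine codon that opens each Gly-X-Y repeat, and each exon holds 6 of these. The last repeat of the Col6a3 exon holds a further glycine codon, gga, left in lower case.
Col1a2: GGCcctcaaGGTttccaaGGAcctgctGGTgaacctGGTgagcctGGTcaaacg
Col3a1: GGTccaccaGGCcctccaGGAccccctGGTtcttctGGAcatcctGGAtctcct
Col5a2: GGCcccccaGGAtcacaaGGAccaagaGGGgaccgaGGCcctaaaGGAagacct
Col6a3: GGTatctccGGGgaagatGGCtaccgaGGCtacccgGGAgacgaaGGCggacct
They are exon 8 of 52 of Col1a2 at chr6:4515481-4515534 on the plus strand, exon 6 of 51 of Col3a1 at chr1:45325360-45325413 on the plus strand, exon 6 of 54 of Col5a2 at chr1:45434892-45434945 on the minus strand and exon 16 of 44 of Col6a3 at chr1:90795915-90795968 on the minus strand.

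Sequences before the start site were searched for 4 motifs on both strands, in windows of 250 bases from RefSeq (GRCm38.p6), which held 38 windows of 35 chains. The GC box GGGCGG was in 22 of the 38 windows (57.9%), against 32.7% of all 32851 windows. The CCAAT box was in 13 (34.2%, against 33.9% of all), the TATA box TATAAA in 5 (13.2%, against 12.4%) and the AP-1 motif TGANTCA in 1 (2.63%, against 6.75%). Windows are shown for Col6a3, the chain with the largest fall, Col3a1, the fibrillar chain with the largest rise, and Col4a6, a chain of the lens capsule, with motif letters in capitals.
Col6a3: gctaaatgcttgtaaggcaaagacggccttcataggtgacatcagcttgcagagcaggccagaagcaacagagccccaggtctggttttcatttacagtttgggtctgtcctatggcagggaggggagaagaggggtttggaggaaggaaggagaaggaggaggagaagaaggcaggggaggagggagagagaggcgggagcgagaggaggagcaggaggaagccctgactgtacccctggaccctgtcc
Col3a1: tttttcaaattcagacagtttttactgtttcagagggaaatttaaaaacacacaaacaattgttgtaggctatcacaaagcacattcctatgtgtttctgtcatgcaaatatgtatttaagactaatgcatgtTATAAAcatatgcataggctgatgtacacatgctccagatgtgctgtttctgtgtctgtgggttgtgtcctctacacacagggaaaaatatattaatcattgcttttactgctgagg
Col4a6: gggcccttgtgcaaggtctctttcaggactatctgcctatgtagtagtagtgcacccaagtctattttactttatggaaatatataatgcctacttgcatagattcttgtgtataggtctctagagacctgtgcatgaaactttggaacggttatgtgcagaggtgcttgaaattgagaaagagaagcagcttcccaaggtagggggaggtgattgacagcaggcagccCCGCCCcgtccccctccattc
They lie at chr1:90843972-90844221 on the minus strand, chr1:45311288-45311537 on the plus strand and chrX:141474077-141474326 on the minus strand. The Col3a1 window holds TATAAA with its first base 117 bases before the start, the Col4a6 window holds the GC box on the opposite strand 21 bases before it, and the Col6a3 window holds none of the 4 motifs. No motif overlaps another in these windows.

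Library sizes were 20036554, 20214477 and 28095318 reads in cKO replicates 1, 2 and 3, against 11531139, 11407157 and 10023049 in wild-type replicates 1, 2 and 3. One read was therefore worth 0.0356 to 0.0998 CPM (reads divided by the library's total and scaled to a sum of 1000000), and the limit that a count of 0 allows, 3 reads, lay between 0.107 and 0.299 CPM, covering counting error alone. Itgb1 itself was measured at 236, 275 and 262 CPM in cKO lenses, against 402, 424 and 448 CPM in wild-type lenses, so transcript remained in the knockout (log2 fold change -0.72, SE 0.077, limma adjusted p = 1.6e-05). The 12 lens markers summed to 187018 to 212443 CPM in cKO lenses and 197753 to 212635 CPM in wild-type lenses. Of the 11 tested, 3 were lower in cKO, Mip, Foxe3 and Gja3, beside 15.9% lower of all genes. The Foxe3 call, with overlapping groups, was lost in 6 of 15 alternatives and the Mip call in 4. Sox1, a gene of lens fibers, was listed at 0 in all 6 libraries, so a listed 0 need not mean that a transcript was absent.

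Of the 44 chains, 28 reached at least 1 CPM in at least 3 libraries and were tested; 24 of these did so in all 6 libraries, and 0 passed through cKO libraries alone. With limma and Benjamini-Hochberg adjustment over all 11941 genes tested, 9 chains were higher in cKO, 3 were lower and 16 were not called at an adjusted p of 0.05. Over all genes tested, 2499 (20.9%) were higher and 1904 (15.9%) were lower. The median log2 fold change of the 28 chains was 0.21, beside 0.03 for all genes. Fold changes are of CPM + 1 and understate the change of low genes, and levels between genes are compared as CPM per kilobase of gene (RPKM). The gene length behind the deposited RPKM, read back from CPM and RPKM, equalled the merged length of all GENCODE M21 exons in 29 of the 42 chains with reads and was shorter in 13, as for Col1a2 (12136 against 12426 bases) and Col2a1 (6001 against 9243 bases). RPKM levels of different chains therefore depend on the gene models used.

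**Figure D1:**
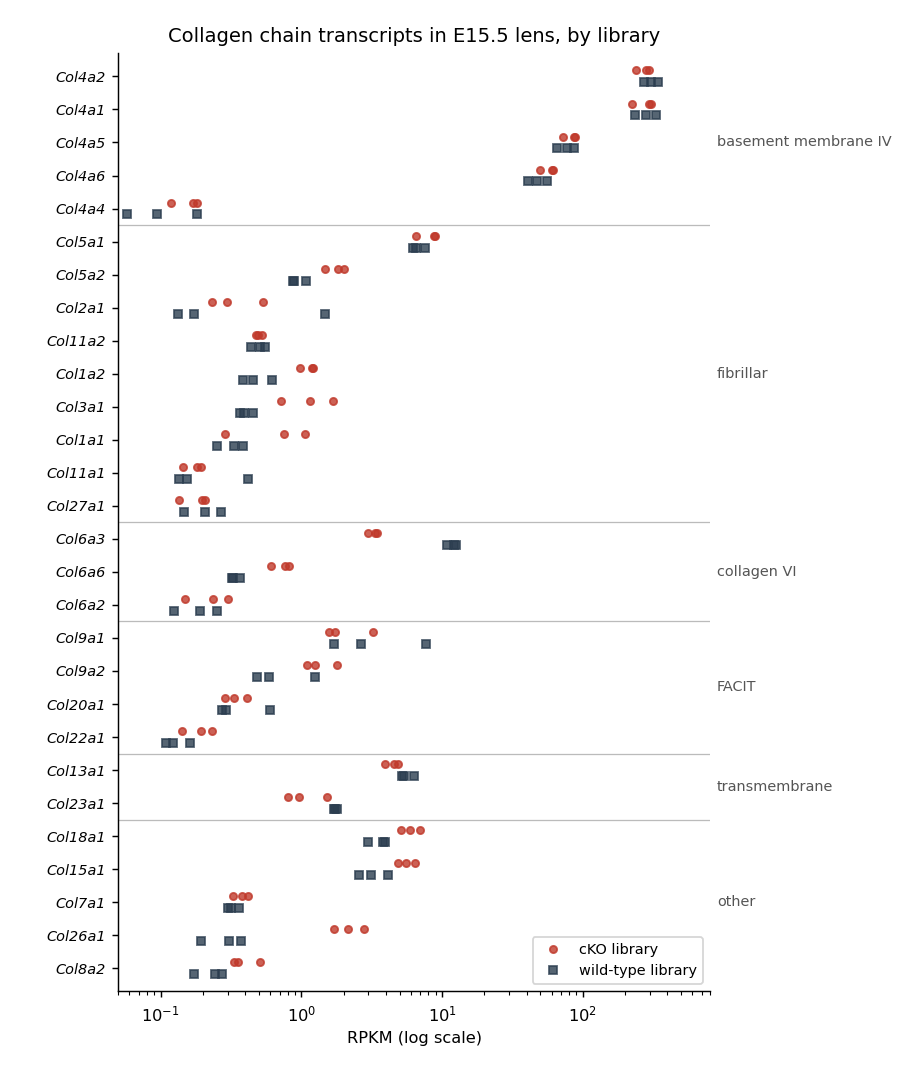
RPKM (log scale) of the 28 tested collagen chains in each cKO library (circles, upper row of each gene) and each wild-type library (squares, lower row), by class. Col4a1, Col4a2, Col4a5 and Col4a6 lie far to the right of every other chain in both groups, and the Col6a3 libraries form separate groups.

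Collagen IV made up nearly all collagen transcript in both groups, and its abundant chains were not called changed. The 6 chains took 93.3% to 93.9% of all collagen CPM in cKO libraries and 92.5% to 94.2% in wild-type libraries. Their sum was 4685 ± 599 CPM in cKO lenses and 4858 ± 709 CPM in wild-type lenses (SD, n = 3 each).

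Col4a1 and Col4a2 encode the chains of the most widespread collagen IV network, with 2 α1 chains to 1 α2 chain, and were the 2 highest collagens by RPKM in both groups. Col4a1 measured 1526, 2078 and 2014 CPM in cKO, against 1608, 1914 and 2274 CPM in wild-type libraries, with a log2 fold change of -0.04 (SE 0.139, limma adjusted p = 0.834). Col4a2 measured 1586, 1952 and 1858 CPM in cKO, against 1799, 2007 and 2285 CPM in wild type (log2 fold change -0.17, SE 0.0993, limma adjusted p = 0.190). The groups overlapped for both chains. Per length, the chains were nearly equal, with a Col4a2 to Col4a1 ratio of 0.996 ± 0.065 in cKO and 1.09 ± 0.059 in wild type (SD, n = 3 each).

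Col4a5 and Col4a6 encode the α5 and α6 chains, which form a network with α1 and α2 or, for α5, with α3 and α4. Both genes lie head to head on the X chromosome with their starts 1309 bases apart. Col4a5 measured 488, 580 and 595 CPM in cKO, against 438, 516 and 582 CPM in wild type (log2 fold change 0.12, limma adjusted p = 0.399). Col4a6 measured 397, 488 and 486 CPM in cKO, against 325, 375 and 443 CPM in wild type (log2 fold change 0.27, SE 0.112, limma adjusted p = 0.0838). The libraries overlapped for each chain alone. Within a library the balance was steadier: the RPKM ratio of Col4a6 to Col4a5 was 0.685, 0.708 and 0.688 in cKO, against 0.626, 0.613 and 0.641 in wild type, and the groups did not overlap. The ratio of Col4a6 to Col4a1 was 0.222, 0.201 and 0.206 in cKO, against 0.173, 0.168 and 0.167 in wild type, again without overlap. Ratios are given as descriptions and were not tested. Col4a6 was called higher, at an adjusted p of 0.00161, with the correction for GC and gene length, and likewise when cKO replicate 1 (0.0222) or wild-type replicate 3 (0.00633) was left out.

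Col4a3 and Col4a4, the chains that with α5 make the network of the glomerulus, were low, at most 1.93 CPM in any library. They too lie head to head, with starts 72 bases apart. Col4a4 averaged 1.66 ± 0.365 CPM in cKO lenses and 1.18 ± 0.679 CPM in wild type (SD, n = 3 each; log2 fold change 0.33, limma adjusted p = 0.237). Leaving out wild-type replicate 2, where it measured 1.93 CPM, Col4a4 was called higher (log2 fold change 0.56, adjusted p = 0.0409). Col4a3, below the filter, averaged 0.938 CPM in cKO lenses and 0.893 CPM in wild-type lenses, and 5.49% of its 50-base words recur in other genes.

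Collagen VI held the largest fall. Col6a3 encodes the α3 chain, the longest chain of the heterotrimer that it forms with α1 and α2. It measured 41.5, 35.4 and 39.9 CPM in cKO libraries, against 145, 151 and 129 CPM in wild-type libraries, resting on 715 to 1122 reads in cKO and 1292 to 1718 reads in wild type. The groups lay far apart, at 38.9 ± 3.17 CPM in cKO lenses and 142 ± 11.3 CPM in wild-type lenses (SD, n = 3 each), with a log2 fold change of -1.84 (SE 0.0869, limma adjusted p = 5.26e-09). Col6a3 is a minus-strand gene at chr1:90765923-90843971, and 0% of its 50-base words recur in other genes. In wild type it had rank 5 of the collagens by RPKM, the first after collagen IV, and in cKO it had rank 9.

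No fall was called in the partners of the α3 chain. Col6a2, the α2 chain, averaged 1.91 ± 0.640 CPM in cKO lenses and 1.57 ± 0.527 CPM in wild type (SD, n = 3 each; log2 fold change 0.17, limma adjusted p = 0.520). Col6a1, the α1 chain, did not pass the filter, with 0.998, 1.04 and 0.819 CPM in cKO, against 0.347, 0.614 and 0.898 CPM in wild type. Col6a3 therefore exceeded Col6a2 per length 15.6 ± 6.32 times in cKO and 68.8 ± 27.3 times in wild type, without overlap between the groups. The size of these ratios is uncertain, as Col6a2 rests on 35 to 51 reads in cKO and 12 to 21 reads in wild type. Col6a6, one of the 3 chains related to α3, was higher, with 5.59, 6.98 and 7.55 CPM in cKO, against 2.95, 3.33 and 2.99 CPM in wild type (log2 fold change 0.91, SE 0.135, limma adjusted p = 0.000257). The groups did not overlap, and 3.88% of its 50-base words recur elsewhere, most of them in Col6a5. Col6a5 and Col6a4, its neighbours on chromosome 9, were under 0.4 CPM in every library.

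**Figure D2:**
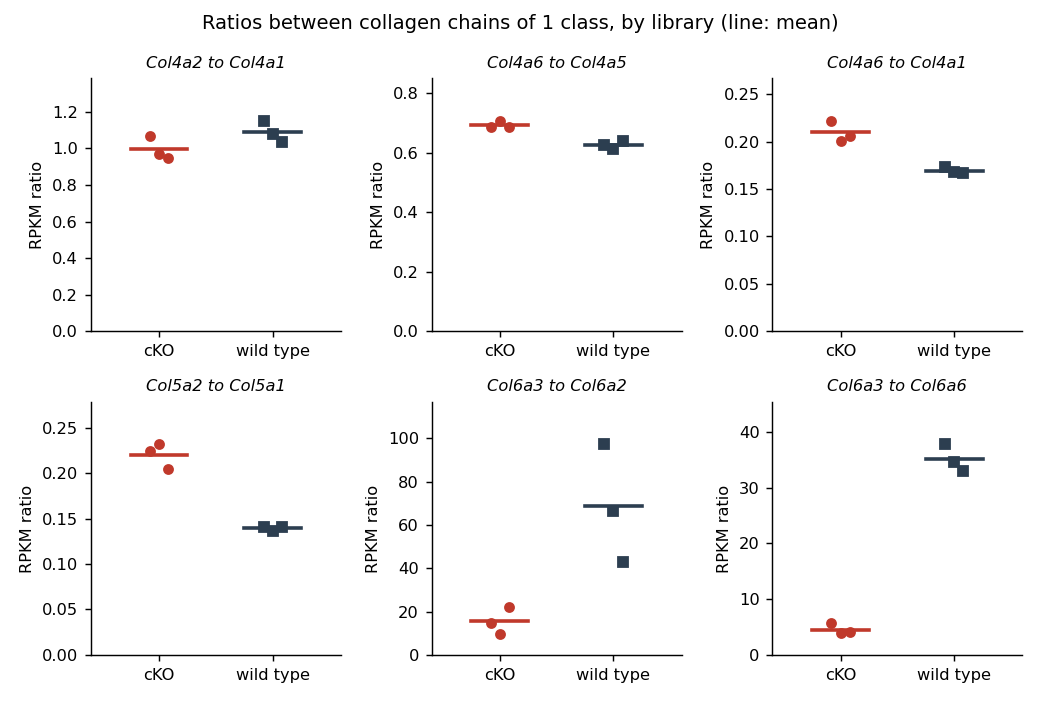
RPKM ratios between chains of one class in each library, cKO left of wild type, with the mean as a line and the axis from 0. Col4a2 to Col4a1 overlaps between the groups; Col4a6 to Col4a5, Col4a6 to Col4a1 and Col5a2 to Col5a1 lie higher in cKO, and Col6a3 to Col6a2 and Col6a3 to Col6a6 lie lower in cKO.

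Among fibrillar chains, 3 of 9 tested were higher in cKO and 0 were lower, beside 20.9% higher and 15.9% lower of all genes. Their class summed to 126 ± 15.3 CPM in cKO lenses and 90.8 ± 10.2 CPM in wild type (SD, n = 3 each). Col1a2, the α2 chain of collagen I, measured 14.8, 14.5 and 11.9 CPM in cKO, against 4.68, 7.45 and 5.49 CPM in wild type (log2 fold change 1.11, SE 0.146, limma adjusted p = 9.74e-05). Col3a1, the single chain of collagen III, measured 11.4, 16.4 and 7.08 CPM in cKO, against 3.82, 4.47 and 3.59 CPM in wild type (log2 fold change 1.28, SE 0.226, limma adjusted p = 0.00151). Neither chain overlapped between the groups, though cKO replicate 3 was the lowest cKO library for both, and 1.67% of the 50-base words of Col3a1 recur in Gm47302.

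Col1a1, the α1 chain that makes collagen I with Col1a2, was not called. It measured 6.99, 4.95 and 1.89 CPM in cKO, against 1.65, 2.54 and 2.19 CPM in wild type (log2 fold change 0.73, SE 0.326, limma adjusted p = 0.113). Its value in cKO replicate 3 lay within the wild-type range, and without that library the log2 fold change was 1.15 with a limma adjusted p of 0.000779.

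Collagen V, which nucleates and thins fibrils of collagen I, held the most abundant fibrillar chain. Col5a1, the α1 chain, measured 55.7, 73.9 and 75.1 CPM in cKO, against 52.5, 55.1 and 64.7 CPM in wild type, with overlap (log2 fold change 0.24, SE 0.115, limma adjusted p = 0.123). It was called higher with GC and length correction (adjusted p = 0.00137) and when cKO replicate 1 (0.00951) or wild-type replicate 3 (0.0375) was left out. Col5a2, the α2 chain, was higher without overlap, at 14.1, 19.3 and 17.3 CPM in cKO, against 8.33, 8.50 and 10.3 CPM in wild type (log2 fold change 0.83, SE 0.126, limma adjusted p = 0.000278). The RPKM ratio of Col5a2 to Col5a1 was 0.224, 0.232 and 0.204 in cKO, against 0.140, 0.137 and 0.141 in wild type, and did not overlap. Col5a2 and Col3a1 are neighbours on chromosome 1, tail to tail with 24614 bases between them. Col5a3, a further chain of collagen V, missed the filter with 0.399, 1.43 and 1.89 CPM in cKO, against 0.347, 0.175 and 0.499 CPM in wild type.

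The other fibrillar chains were low. Col11a2 averaged 3.40 ± 0.159 CPM in cKO lenses and 3.41 ± 0.408 CPM in wild type (SD, n = 3 each; log2 fold change -0.00, limma adjusted p = 0.991). Col27a1 averaged 2.33 ± 0.505 CPM in cKO lenses and 2.70 ± 0.799 CPM in wild type (log2 fold change -0.14, limma adjusted p = 0.563). Col24a1 was at most 0.263 CPM in any library.

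Several chains were set apart in 1 wild-type library. Col2a1, the chain of collagen II, the main collagen of cartilage and of the vitreous, measured 1.40, 3.22 and 1.78 CPM in cKO, against 1.04, 8.77 and 0.798 CPM in wild type. Col9a1, a FACIT chain of collagen IX, which coats collagen II fibrils, measured 8.83, 16.4 and 7.94 CPM in cKO, against 13.4, 39.0 and 8.68 CPM in wild type. Col11a1, the α1 chain of collagen XI, measured 1.40, 1.88 and 1.74 CPM in cKO, against 1.30, 4.03 and 1.5 CPM in wild type. The second wild-type library was the highest of all 6 for each of these chains, and none was called (log2 fold change -0.12, -0.62 and -0.20; limma adjusted p = 0.918, 0.472 and 0.566). The 9 retina markers summed to 2.70, 7.87 and 3.92 CPM in cKO, against 0.954, 8.33 and 0.798 CPM in wild type, with 0 of them tested. Their sum was also highest in that library, with the second cKO library next, as it was for Col2a1, Col9a1 and Col11a1. Of the 9 markers, Six6 and Lhx2 alone were highest there, at 2.10 and 3.86 CPM, against 1.43 and 1.83 CPM in cKO replicate 2. Atoh7 was highest in cKO replicate 3, and the other markers were highest in cKO replicate 2. The part of retina in these values was not tested. Without wild-type replicate 2 the log2 fold change of Col2a1 was 0.67 with a limma adjusted p of 0.0447, that of Col9a1 was -0.03 (adjusted p = 0.943) and that of Col11a1 was 0.15, so the values over all libraries rest on that library.

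**Figure D3:**
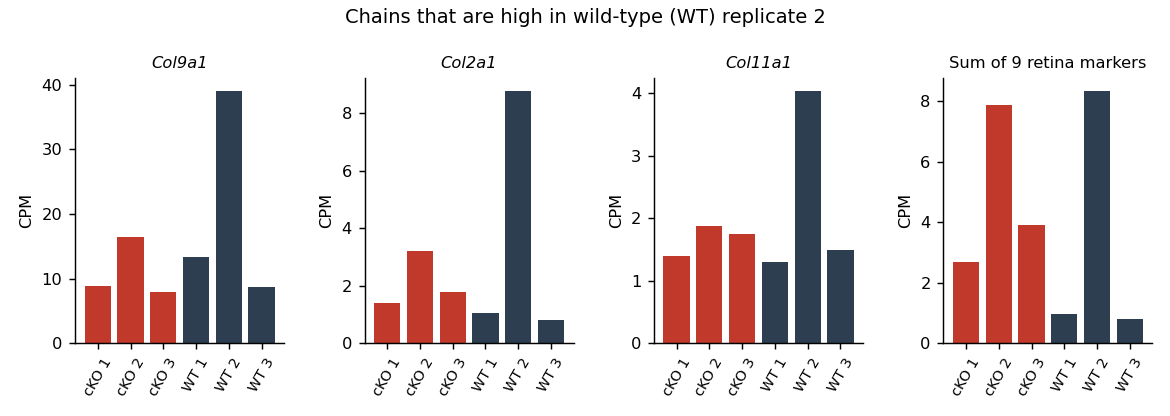
CPM of Col9a1, Col2a1, Col11a1 and the sum of 9 retina markers in each library, cKO left of wild type, with bars from 0. Wild-type replicate 2 is highest in all 4 panels, and cKO replicate 2 is the highest cKO library in all 4. Of the 9 markers, Six6 and Lhx2 alone were highest in wild-type replicate 2.

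The other FACIT chains were low, and 1 of the 4 tested was called, beside 20.9% higher and 15.9% lower of all genes. Col9a2, the α2 chain of collagen IX, measured 3.84, 5.54 and 3.42 CPM in cKO, against 1.82, 3.86 and 1.5 CPM in wild type, and was higher although the groups overlapped (log2 fold change 0.68, SE 0.236, limma adjusted p = 0.0427). Leaving out replicate 1 or 2 of cKO, or replicate 1 or 3 of wild type, ended this call, at adjusted p-values up to 0.144. The RPKM ratio of Col9a2 to Col9a1 was 0.712, 0.552 and 0.705 in cKO, against 0.223, 0.162 and 0.282 in wild type, without overlap. Col20a1 averaged 1.44 ± 0.270 CPM in cKO lenses and 1.62 ± 0.762 CPM in wild type (log2 fold change -0.07, limma adjusted p = 0.808). Col22a1 averaged 1.73 ± 0.417 CPM in cKO lenses and 1.21 ± 0.255 CPM in wild type (SD, n = 3 each; log2 fold change 0.31, limma adjusted p = 0.162).

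Both transmembrane chains that were tested were lower in cKO, beside 15.9% lower of all genes. Col23a1 measured 4.59, 8.76 and 5.48 CPM in cKO, against 9.80, 10.3 and 9.88 CPM in wild type (log2 fold change -0.63, SE 0.170, limma adjusted p = 0.0110). Col13a1 measured 18, 20.8 and 22.4 CPM in cKO, against 24.5, 23.8 and 29.3 CPM in wild type (log2 fold change -0.33, SE 0.107, limma adjusted p = 0.0275). The groups did not overlap for either chain. The Col13a1 call was lost with GC and length correction (adjusted p = 0.112), without cKO replicate 1 (0.103) and without wild-type replicate 3 (0.107). Col17a1, a hemidesmosome collagen, and Col25a1 were below the filter.

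The remaining class held the largest rise and 4 calls among 5 tested chains, all of them higher, beside 20.9% higher of all genes. Its sum was 97.1 ± 12.6 CPM in cKO lenses and 52.2 ± 8.69 CPM in wild type (SD, n = 3 each). Col26a1, which encodes a secreted collagen known from testis and ovary, measured 9.93, 12.5 and 16.4 CPM in cKO, against 1.13, 2.19 and 1.80 CPM in wild type. These rest on 199 to 461 reads in cKO and 13 to 25 reads in wild type, without overlap (log2 fold change 2.36, SE 0.185, limma adjusted p = 1.40e-06). It is a minus-strand gene at chr5:136741759-136883209, and by RPKM it had rank 10 among the collagens in cKO lenses and rank 22 in wild-type lenses.

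Collagens XV and XVIII carry glycosaminoglycan chains and lie in basement membranes, those of vessels included. Col18a1, whose protein releases endostatin, measured 35.6, 48.9 and 41.6 CPM in cKO, against 21, 27.4 and 26.7 CPM in wild type (log2 fold change 0.72, SE 0.123, limma adjusted p = 0.000743). Col15a1 measured 30.9, 40.9 and 35.2 CPM in cKO, against 16.2, 19.9 and 26.2 CPM in wild type (log2 fold change 0.77, SE 0.154, limma adjusted p = 0.00297). Every cKO library was above every wild-type library for both chains, and their RPKM ratio stayed alike, with Col18a1 at 1.06 ± 0.021 times Col15a1 in cKO and 1.11 ± 0.170 times in wild type.

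Col8a2, a short-chain collagen of the corneal endothelium's basement membrane, measured 2.30, 1.58 and 1.49 CPM in cKO, against 0.780, 1.23 and 1.10 CPM in wild type (log2 fold change 0.45, SE 0.164, limma adjusted p = 0.0452). The groups did not overlap, but the wild-type values rest on 9 to 14 reads. Its call was lost when any 1 of the 6 libraries was left out, with adjusted p-values of 0.0518 to 0.200. Col7a1, the anchoring fibril collagen, averaged 3.83 ± 0.474 CPM in cKO lenses and 3.33 ± 0.312 CPM in wild type (SD, n = 3 each; log2 fold change 0.16, limma adjusted p = 0.392).

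**Figure D4:**
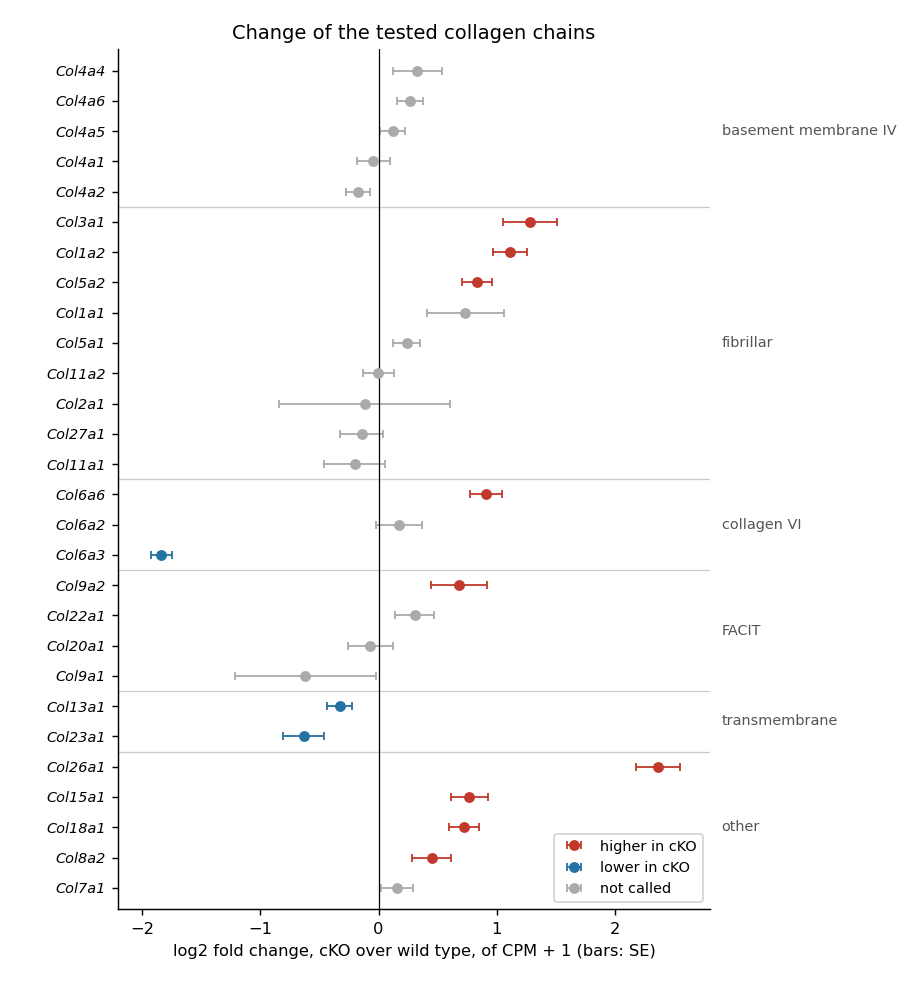
Log2 fold change (cKO over wild type, of CPM + 1) of the 28 tested chains by class, with the standard error as bars. Red points are called higher in cKO, blue points lower and grey points not called; Col26a1 and Col6a3 lie at the ends, at 2.36 and -1.84.

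The 16 chains below the filter averaged at most 1.30 CPM in cKO lenses and at most 0.893 CPM in wild-type lenses. Col10a1, of growth plate cartilage, and Col19a1 were listed at 0 in all 6 libraries. Of the others, Col12a1 reached 2.15, 1.14 and 0.605 CPM in cKO, against 0.173, 0.351 and 0.698 CPM in wild type. Col16a1 reached 1.30, 0.989 and 1.49 CPM in cKO, against 0.434, 0.526 and 0.499 CPM in wild type. Col8a1, the partner of Col8a2, reached 0.599, 0.742 and 0.712 CPM in cKO, against 0.0867, 0.0877 and 0.200 CPM in wild type, the wild-type values resting on at most 2 reads per library. Col14a1, Col28a1, Col24a1, Col6a4 and Col6a5 averaged under 0.3 CPM in each group. Col9a3, of which 6.17% of 50-base words recur elsewhere, averaged 0.612 CPM in cKO lenses and 0.357 CPM in wild-type lenses, Col17a1 averaged 0.623 CPM in cKO, against 0.420 CPM in wild type, and Col25a1 averaged 0.810 CPM in cKO, against 0.653 CPM in wild type.

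Markers of cells outside the lens epithelium and fibers moved beside these chains. Endothelial markers summed to 246 to 292 CPM in cKO lenses and 155 to 189 CPM in wild-type lenses, and 9 of 12 tested were higher and 0 lower, Tek among the higher. Pericyte and smooth muscle markers summed to 209 to 246 CPM in cKO lenses and 109 to 138 CPM in wild-type lenses, with 7 of 9 tested higher, including Rgs5 and Acta2, and Notch3 lower. Acta2 and Tagln rose most, with log2 fold changes of 2.92 and 2.75, against 0.46 to 1.06 for the other higher members. Myh11, below the filter, averaged 0.609 CPM in cKO lenses and 0.653 CPM in wild type. Whether Acta2 and Tagln came from cells of this type was not tested. Macrophage markers summed to 27.4 to 38.2 CPM in cKO lenses and 11.3 to 14.6 CPM in wild type, with 9 of 10 tested higher. Among these 9, Tyrobp and Fcer1g passed the filter through cKO libraries alone. In wild type Tyrobp measured 0.694, 0.351 and 0.0998 CPM and Fcer1g 0.607, 0.614 and 0.399 CPM. The sums of these 3 lists did not overlap between the groups. Of all genes tested, 20.9% were higher and 15.9% were lower.

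Markers of periocular mesenchyme and fibroblasts gave a mixed picture. They summed to 184 to 210 CPM in cKO lenses and 205 to 250 CPM in wild-type lenses. Most of this was Pdgfra, at 173 CPM in cKO lenses and 211 CPM in wild type on average. Of the 4 of 15 that were tested, Foxc1 and Prrx1 were higher and Pdgfra was lower, the last call being lost in 3 of 15 alternatives. Below the filter, Twist1, Dcn and Lum averaged 0.929, 0.682 and 0.724 CPM in cKO lenses, against 0.0870, 0.150 and 0.0874 CPM in wild type. Of these, Lum alone overlapped between the groups. Prrx2, tested and not called, and Mfap5 and Thy1 averaged lower in cKO lenses, with overlap. Foxc2, Tcf21 and Dpt were listed at 0. Of the 8 cartilage markers, Matn1 and Chad were listed at 0. Sox9, the 1 tested, was higher at 4.75 ± 0.761 CPM in cKO lenses and 1.28 ± 0.290 CPM in wild type (SD, n = 3 each). Below the filter, Matn3 and Hapln1 went the other way without overlap. They averaged 0.346 and 0.367 CPM in cKO lenses, against 1.08 and 0.739 CPM in wild type. Lect1 and Acan were also lower, with overlap, and Comp had reads in cKO libraries alone. The sum of the 8, mostly Sox9 in cKO lenses, was 5.05 to 6.39 CPM in cKO lenses and 2.86 to 3.69 CPM in wild type. Cornea and surface ectoderm markers summed to 1.71 to 2.60 CPM in cKO lenses and 1.40 to 2.34 CPM in wild type, with Krt12 listed at 0 and 0 of 1 tested called. The part of these cells in the collagen values was not tested.

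Of the 22 listed genes that fold and modify collagen in the endoplasmic reticulum, all were tested, 3 were higher, 8 were lower and 11 were not called, beside 20.9% higher and 15.9% lower of all genes, and the median log2 fold change was -0.14, beside 0.03 for all genes. Serpinh1, the collagen chaperone HSP47, measured 295, 288 and 277 CPM in cKO, against 422, 386 and 402 CPM in wild type (log2 fold change -0.49, SE 0.0686, limma adjusted p = 0.000155). The prolyl 3-hydroxylase complex, which acts on single prolines of the chains, is made of Crtap, Lepre1 and Ppib, and the first and second of them were lower. Crtap, its scaffold, averaged 13.4 ± 1.57 CPM in cKO lenses and 21.2 ± 0.848 CPM in wild type (log2 fold change -0.64, limma adjusted p = 0.000408), and Lepre1, its enzyme, averaged 37.4 ± 2.18 CPM in cKO lenses and 50.9 ± 1.63 CPM in wild type (log2 fold change -0.43, limma adjusted p = 0.00102).

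Leprel1, a second prolyl 3-hydroxylase with a known role in collagen IV, averaged 63.4 ± 10.9 CPM in cKO lenses and 97.5 ± 5.07 CPM in wild type (log2 fold change -0.63, limma adjusted p = 0.000732). The prolyl 4-hydroxylases stabilise the helix. Their shared subunit P4hb averaged 193 ± 5.64 CPM in cKO lenses and 248 ± 13.1 CPM in wild-type lenses (log2 fold change -0.36, limma adjusted p = 0.00160), and the catalytic subunit P4ha2 averaged 12.7 ± 2.64 CPM in cKO lenses and 19.5 ± 1.13 CPM in wild type (log2 fold change -0.60, limma adjusted p = 0.00247). Colgalt2, a galactosyltransferase of hydroxylysine, was higher, at 8.11 ± 0.787 CPM in cKO lenses and 5.56 ± 0.510 CPM in wild type (log2 fold change 0.47, limma adjusted p = 0.00822). Plod3, a lysyl hydroxylase, was lower by a small amount (log2 fold change -0.23, limma adjusted p = 0.0366) and was no longer called when replicate 1 or 3 of cKO, or replicate 2 or 3 of wild type, was left out. P4ha1, Ppib and Plod1 are the other members called, named here after their values were seen, with log2 fold changes of 0.20, 0.22 and -0.22, and each lost its call in at least 7 of 15 alternatives.

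Of 15 enzymes and helpers that trim and crosslink collagen, 6 were tested, 0 were higher and 1 was lower, beside 15.9% lower of all genes, with a median log2 fold change of -0.14. Pxdn, the peroxidase that forms the sulfilimine crosslink of collagen IV, measured 524, 670 and 627 CPM in cKO, against 656, 769 and 899 CPM in wild type, with overlap (log2 fold change -0.35, SE 0.117, limma adjusted p = 0.0364). It was no longer called when replicate 1 or 3 of cKO, or replicate 2 or 3 of wild type, was left out, at adjusted p-values of 0.0604 to 0.113.

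Of 10 collagen receptors, 7 were tested, 2 were higher and 0 were lower, beside 20.9% higher of all genes, with a median log2 fold change of 0.26. Itga1, the α1 subunit that pairs with β1 and prefers collagen IV, measured 5.29, 8.31 and 6.83 CPM in cKO, against 3.12, 3.16 and 4.49 CPM in wild type, without overlap (log2 fold change 0.76, SE 0.165, limma adjusted p = 0.00304). Ddr2, a receptor tyrosine kinase for fibrillar collagen, averaged 2.16 ± 0.629 CPM in cKO lenses and 1.11 ± 0.434 CPM in wild type (log2 fold change 0.59, limma adjusted p = 0.0286), and was not called when replicate 1 or 2 of cKO or replicate 1 of wild type was left out.

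Proteins that bind collagen in the matrix were tested in 9 of 16 cases, of which 6 were higher and 2 lower, beside 20.9% and 15.9% of all genes, with a median log2 fold change of 0.38. Sparc, which binds collagen IV and fibrillar collagen, measured 1995, 2095 and 2165 CPM in cKO, against 1468, 1509 and 1523 CPM in wild type (log2 fold change 0.47, SE 0.0694, limma adjusted p = 0.000222). Fbln1, a fibulin of basement membranes, measured 16.1, 22.0 and 16.6 CPM in cKO, against 35.8, 32.4 and 32.0 CPM in wild type (log2 fold change -0.85, SE 0.113, limma adjusted p = 0.000100). Fbln2, a related fibulin, averaged 11.3 ± 2.74 CPM in cKO lenses and 5.92 ± 1.96 CPM in wild type (log2 fold change 0.85, limma adjusted p = 0.00795), the opposite direction to Fbln1. Vit, which encodes vitrin, averaged 820 ± 38.1 CPM in cKO lenses and 684 ± 12.3 CPM in wild-type lenses (log2 fold change 0.26, limma adjusted p = 0.00895).

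The other called members of that list changed less firmly. Bgn (biglycan), Postn (periostin) and Tgfbi were higher, with log2 fold changes of 0.38, 0.45 and 0.47, and Ogn (osteoglycin) was lower, with -0.28. Their limma adjusted p-values were 0.0152, 0.0273, 0.0296 and 0.0395, and each of the 4 calls was lost when some single libraries were left out. Postn passed the filter through cKO libraries alone, with 0.780, 0.789 and 0.998 CPM in wild type. It was therefore not tested when a cKO library was left out.

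**Figure D5:**
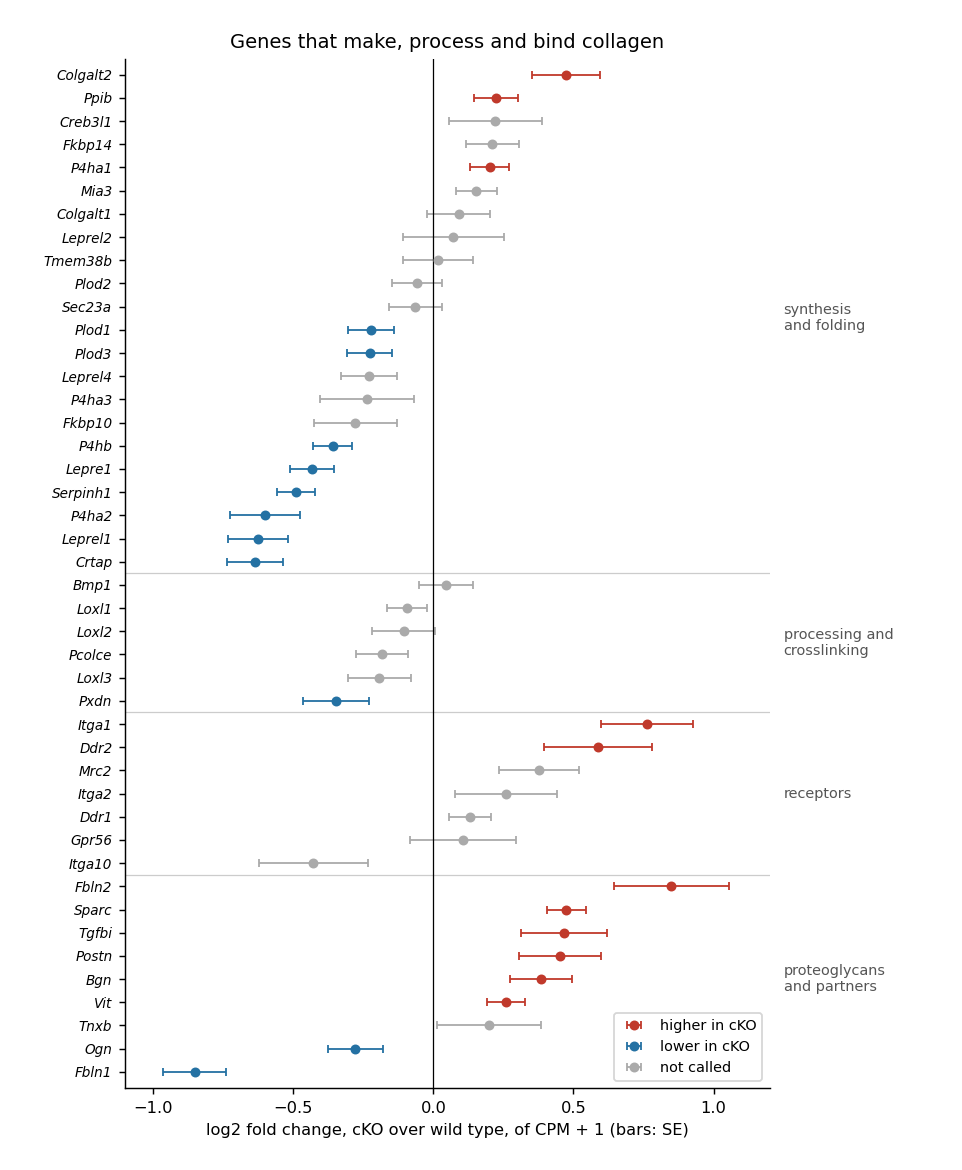
Log2 fold change (cKO over wild type, of CPM + 1) of the tested genes that make, process or bind collagen, in 4 lists, with the standard error as bars. Red points are called higher in cKO, blue points lower and grey points not called; Crtap, at -0.64, is the lowest of the synthesis and folding genes.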

How the data were processed

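RNA was isolated from pooled lenses with a column kit, selected for poly(A), made into libraries with a TruSeq v2 kit and read in single-end reads of 50 bases, per the labels' protocols. That kit does not mark strand. Each file deposited by the authors gives CPM, reads scaled to the same sum in each library, and RPKM, CPM per kilobase of gene, per the file headers. Both edgeR and the build GRCm38 are named by the submitters' processing notes. Aligner, counter and annotation were not given in the sources used here.

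Divided by the CPM of 1 read, 100% of the values came out whole within 0.02 reads, which recovered the reads. Reads on features that lack an Ensembl identifier were 0.192% to 0.208% of a library. Because the values were CPM, limma 3.58.1 was the main test: limma-trend with robust moderation on log2(CPM + 1), over genes that reached 1 CPM in 3 or more libraries, with group as the only term and Benjamini-Hochberg adjustment over all of them. Tools for counts, edgeR 4.0.16 and DESeq2 1.42.0, were run on the recovered reads as alternatives. On them edgeR called 2378 genes higher and 2387 lower. The others were TMM and RLE scaling, no filter, a pseudocount of 0.1, a filter on a mean of 1 CPM, correction for GC content and length, the replicate number as a block and leaving out each library.

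Coordinates and exons came from GENCODE M21, in which all 44 chains were found by identifier. Shared sequence was counted as 50-base words found in transcripts of other genes. Replicates of a group differed by more than sampling noise in every pair (chi-square per degree of freedom 4.25 to 18.7). The members and all gene and marker lists were chosen with earlier results of these data known, and 1 listed marker is not reported here. Every tested chain is named, with each library's value where it was called or averaged at least 10 CPM in a group; of each list outside the collagens and markers, up to 8 called genes with the smallest adjusted p are named.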

Additional observations from a re-analysis of the deposited data

How the results depend on the processing

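Of the 12 called chains, 9 kept their direction and stayed called under all 15 alternatives: Col26a1, Col3a1, Col1a2, Col6a6, Col5a2, Col15a1, Col18a1, Col6a3 and Col23a1. Over these alternatives the log2 fold change of Col6a3 ranged from -1.90 to -1.73, that of Col26a1 from 2.19 to 2.91, that of Col3a1 from 1.02 to 1.57 and that of Col23a1 from -0.87 to -0.46. Calls of Col8a2 were lost in 11 of 15 alternatives, of Col9a2 in 6 and of Col13a1 in 4, and DESeq2 alone of the other tools also called Col4a2 lower (adjusted p = 0.0491); the cause was not tested. Without the filter on low values, 42 chains were tested and 9 were higher and 2 lower. Col8a2, Col9a2 and Col13a1 were not called in that setting, so the 9 include chains that the filter had left out. Leaving out 1 library at a time, the count of higher chains ranged from 7 to 10 and the log2 fold change of Col2a1 from -0.55 to 0.67, the last without wild-type replicate 2. Chains that rest on few reads in wild type, such as Col8a2, are limited by depth.

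The replicate numbers were not shown to pair the libraries: the deviations of libraries with the same number correlated at 0.327, -0.034 and 0.147. With the replicate block, 11 chains were called higher and 5 lower, the added ones being Col4a6, Col5a1, Col4a2 and Col9a1.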

Other observations

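Genes outside the collagen names that encode a collagen-like domain were looked at as well, in a list of 20 chosen after the data were seen. Of these 10 were tested, and 4 were higher and 3 were lower in cKO, beside 20.9% higher and 15.9% lower of all genes. The median log2 fold change of the 10 was -0.05. Emilin1, an elastic fiber protein, measured 26.5, 36.2 and 32.7 CPM in cKO, against 9.54, 11.2 and 11.6 CPM in wild type (log2 fold change 1.47, limma adjusted p = 1.33e-06). Ccbe1, a secreted protein needed for growth of lymphatic vessels, measured 6.44, 10.4 and 6.62 CPM in cKO, against 35.0, 37.4 and 43.5 CPM in wild type (log2 fold change -2.19, limma adjusted p = 1.11e-06), a larger fall than that of any collagen chain tested. Neither gene overlapped between the groups. Cthrc1, which has a short collagen repeat, averaged 11.4 ± 0.877 CPM in cKO lenses and 5.92 ± 1.27 CPM in wild type (SD, n = 3 each; log2 fold change 0.86, limma adjusted p = 0.000432). C1qtnf1, Colec12, C1qtnf4 and Eda were the other genes called, with log2 fold changes of 1.38, 0.40, -0.44 and -0.40. C1qtnf1 reached 1 CPM only in cKO libraries, with 0.0867, 0.614 and 0.200 CPM in wild type. C1qtnf4 reached it only in wild-type libraries, with 0.848, 0.495 and 0.783 CPM in cKO. Each thus passed the filter through the group where it was high, and was not tested when a library of that group was left out. The calls of C1qtnf4 and Eda were lost in 5 of 12 and 5 of 15 alternatives, and the log2 fold change of Colec12 was 0.21 after GC and length correction.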
